A study of Mus musculus with 20 samples.

Results

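The tumour necrosis factor (TNF) superfamily was followed through 4 treatments of a mouse tumour. The members were all rows of the deposited table whose symbol starts with Tnfsf or Tnfrsf, together with Tnf, Lta, Ltb, Ltbr, Fas, Fasl, Cd40lg and Cd70. This gave 32 of the 770 genes measured, 16 ligands and 16 receptors. MMC tumour cells were implanted under the skin of mice aged 6 to 8 weeks. These hosts (FVB/N-TgN(MMTV-Erbb2)NK1Mul/J) carry an Erbb2 transgene driven by the MMTV promoter in all groups. Treatment began at tumour volumes of 200 to 500 mm3, and RNA from whole tumours was counted with nCounter probes on day 1 after a 5 mg/kg intraperitoneal dose in PBS. The groups were anti-rHER2 ISAC (an immune-stimulating antibody conjugate, the anti-rHER2 antibody carrying T785, an agonist of the endosomal receptors TLR7 and TLR8), anti-rHER2 (the antibody alone), isotype ISAC (T785 on an isotype control antibody) and isotype antibody (that control antibody alone). Each group held 5 tumours, each from its own mouse.

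Between 271793 and 508433 probe counts were recovered per tumour, and the epithelial marker Epcam lay between 4390 and 7192 signal units in all 20 tumours. All values below are normalized signals, a linear scale on which 1 probe count was worth between 0.826 and 1.33 units. The family was mostly of low signal: 17 of the 32 members averaged under 15 units over the 20 tumours, and 7 averaged over 100. Probes differ in efficiency, so no level is set against that of another gene. Of the 640 member values, 20 sat at the lowest level of their tumour, where 0 and 1 count cannot be told apart. In whole tumours, fewer cells of a type and less RNA per cell cannot be told apart.

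TNF superfamily ligands are mostly membrane-anchored trimers that act on neighbouring cells and can be shed. Receptors either recruit TRAF adaptors and switch on NF-kB or, where they carry a death domain, can assemble a caspase-activating complex. In tumours the family is known for lymphocyte co-stimulation, for lymphoid tissue organisation and for killing through Fas and TRAIL.

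Anti-rHER2 ISAC tumours had more signal than isotype antibody tumours for the ligands Tnfsf14, Tnfsf13b, Tnfsf12 and Fasl and for the receptors Tnfrsf14, Tnfrsf1b and Fas, and less for the ligand Tnfsf18 and the receptors Ltbr and Tnfrsf12a. Higher calls (limma on log2(signal + 1), Benjamini-Hochberg adjusted p below 0.05 over 770 genes) thus covered 7 of the 32 members, where 39.9% of all genes were called higher. Lower calls covered 3 of the 32 members, where 4.68% of all genes were called lower. The median log2 fold change of the members was 0.30, beside 0.36 over the 770 genes. Among ligands 4 of 16 were higher and 1 lower, and among receptors 3 of 16 were higher and 2 lower. In 5 members every anti-rHER2 ISAC tumour lay above every isotype antibody tumour (28.6% of all genes), and in 0 members every one lay below (2.99% of all genes).

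This split depended on how the tumours were scaled. With tumour medians made equal, 3 members were called higher and 13 lower, with median-ratio scaling 5 and 7, and with quantile normalization 3 higher and 9 lower. The median log2 fold change of all genes was then -0.29, -0.02 and -0.09 in that order. The calls of Tnfsf14, Tnfsf13b, Tnfsf18, Ltbr and Tnfrsf12a were kept under all 3 scalings, and those of Fas and Fasl under none. Not called as deposited, Tnfrsf10b, Tnfrsf11a and Tnfrsf11b were called lower under all 3. Tnfsf11 was so with equal medians and median-ratio scaling, and Ltb, Tnfrsf18 and Tnfsf8 with equal medians and quantile normalization. Tnfrsf1a, Tnfsf10 and Tnfsf15 were called lower with equal medians only.

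**Figure D1:**
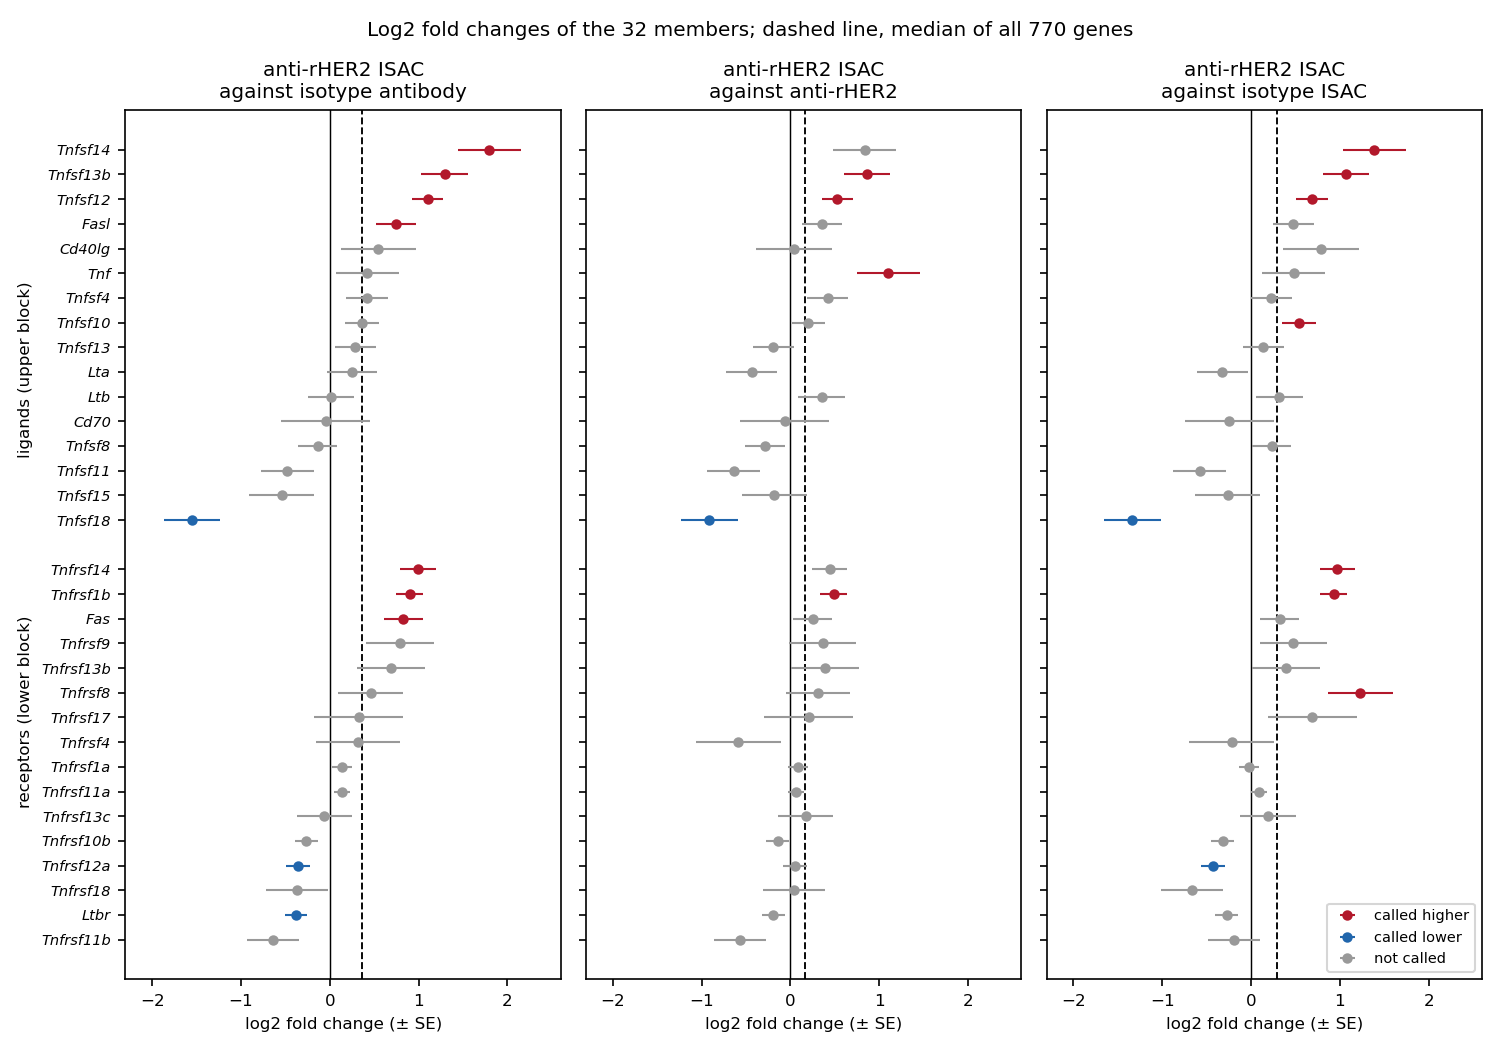
Log2 fold changes (x axis, with standard errors) of the 32 members (rows, ligands above receptors) in anti-rHER2 ISAC tumours against each other group, with filled colour for calls and a dashed line at the median of all genes. Tnfsf14 stands at 1.79 and Tnfsf18 at -1.55 against the isotype antibody.

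**Figure D2:**
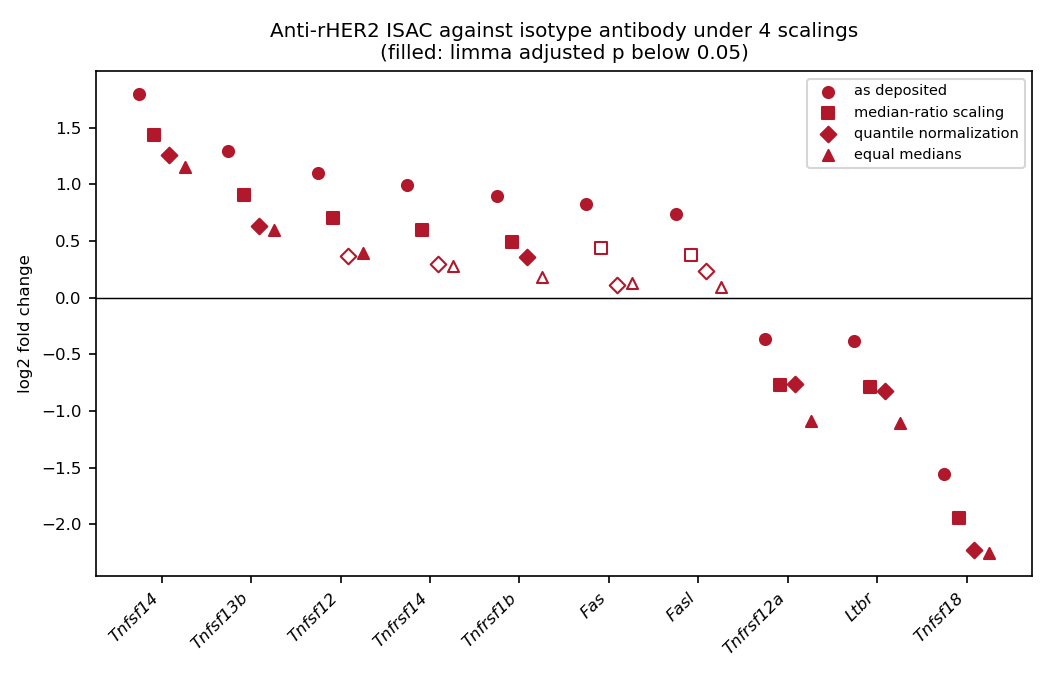
Log2 fold change (y axis) of the 10 members called in anti-rHER2 ISAC against isotype antibody tumours, as deposited and under 3 other scalings, with filled symbols for limma adjusted p below 0.05. Fas and Fasl have open symbols under all 3 other scalings, and Tnfsf14, Tnfsf13b, Tnfrsf12a, Ltbr and Tnfsf18 are filled under each.

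RefSeq promoters (GRCm38.p6, 250 bases before to 50 after a start site) were at hand for 26 members, as 28 promoters. Of these, 6 held the interferon-response core GAAANNGAA on either strand, the letters at which interferon regulatory factors can bind, in Tnfrsf14, Tnfrsf17, Tnfrsf1b, Tnfrsf4, Tnfsf13b and Tnfsf8. The same letters stood in 8.56% of 32851 promoters and in 89 of the 566 panel genes with a sequence. The kappa-B decamer, which NF-kB binds, was matched in 3 of the 28 member promoters (Ltb, Tnfrsf8 and Tnfrsf9), in 8.46% of all promoters and in 89 of those 566 panel genes. Shown here are the promoters of the 3 members called in anti-rHER2 ISAC against isotype antibody tumours that held either motif, with the interferon-response core in capitals. It began 16 bases before the start site of the Tnfsf13b promoter shown (chr8:10006383-10006682, plus strand). It began 63 bases before the start site in Tnfrsf14 (chr4:154928028-154928327, minus strand) and 9 before it in Tnfrsf1b (chr4:145246821-145247120, minus strand). In Tnfrsf14 and Tnfrsf1b it lay on the strand opposite to the gene. Another Tnfsf13b promoter, with a start site further upstream (chr8:10006217-10006516, plus strand), held neither motif and is not shown. A match is a description of the letters, not a bound site.
Tnfsf13b: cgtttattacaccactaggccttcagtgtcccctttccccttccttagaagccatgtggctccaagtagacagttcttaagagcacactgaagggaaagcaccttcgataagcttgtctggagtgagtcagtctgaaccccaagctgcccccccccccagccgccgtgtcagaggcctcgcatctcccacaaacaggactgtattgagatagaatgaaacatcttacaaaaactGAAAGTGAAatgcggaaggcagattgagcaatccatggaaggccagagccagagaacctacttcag
Tnfrsf14: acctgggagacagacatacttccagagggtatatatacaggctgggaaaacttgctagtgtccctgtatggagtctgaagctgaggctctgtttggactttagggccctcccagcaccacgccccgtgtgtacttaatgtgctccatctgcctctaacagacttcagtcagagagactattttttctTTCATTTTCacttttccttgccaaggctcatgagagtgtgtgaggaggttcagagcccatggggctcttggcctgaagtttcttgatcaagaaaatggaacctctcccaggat
Tnfrsf1b: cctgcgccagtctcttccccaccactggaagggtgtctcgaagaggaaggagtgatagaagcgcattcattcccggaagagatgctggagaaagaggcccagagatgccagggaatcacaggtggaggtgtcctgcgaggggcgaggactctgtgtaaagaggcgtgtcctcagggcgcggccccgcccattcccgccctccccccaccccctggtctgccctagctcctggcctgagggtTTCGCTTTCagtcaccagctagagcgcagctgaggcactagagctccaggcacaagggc

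Of the LIGHT and lymphotoxin members, the ligand Tnfsf14 and the receptor Tnfrsf14 were called higher and the receptor Ltbr lower against isotype antibody tumours. Tnfsf14 (LIGHT) is a ligand made by activated lymphocytes and myeloid cells, and it binds both HVEM (Tnfrsf14) and the lymphotoxin beta receptor (Ltbr). Its signals were 21.03, 14.6, 31.99, 11.03 and 15.7 in anti-rHER2 ISAC tumours and 8.37, 6.95, 8.26, 10.8 and 14.2 in anti-rHER2 tumours. They were 2.87, 5.68, 7.69, 10.6 and 6.12 in isotype ISAC tumours and 4.70, 8.62, 3.54, 1.33 and 6.80 in isotype antibody tumours. All 5 anti-rHER2 ISAC tumours lay above all isotype antibody tumours (28.6% of all genes) and all isotype ISAC tumours (24.7% of all genes). At 14.2, 1 anti-rHER2 tumour reached into the anti-rHER2 ISAC range. The log2 fold change was 1.79 ± 0.35, adjusted p = 0.000454 against isotype antibody and 1.39 ± 0.35, adjusted p = 0.00441 against isotype ISAC (limma). Against anti-rHER2 it was 0.84 ± 0.35, adjusted p = 0.106. The isotype antibody call was kept under all 3 other scalings, and the isotype ISAC call with median-ratio scaling only. Tnfrsf14 (HVEM) averaged 102 ± 15.4 in anti-rHER2 ISAC tumours, 75.7 ± 16.9 in anti-rHER2 tumours, 52.1 ± 12.5 in isotype ISAC tumours and 51.3 ± 11.6 in isotype antibody tumours (SD, n = 5 each). Its lowest anti-rHER2 ISAC tumour, at 79.7, exceeded the highest isotype ISAC and isotype antibody tumours, at 67.5 and 62.1 (24.7% and 28.6% of all genes). The log2 fold change was 0.99 ± 0.20, adjusted p = 0.000547 against isotype antibody and 0.97 ± 0.20, adjusted p = 0.000767 against isotype ISAC (limma), and neither call was kept with equal medians or quantile normalization.

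Ltbr, the receptor of lymphotoxin and LIGHT on stromal and epithelial cells, was called lower against isotype antibody. Signals were 418, 514, 436, 426 and 489 in anti-rHER2 ISAC tumours and 489, 528, 502, 474 and 614 in anti-rHER2 tumours. They were 469, 601, 457, 720.1 and 544 in isotype ISAC tumours and 651, 542, 682, 602 and 508 in isotype antibody tumours. The groups overlapped, since the highest anti-rHER2 ISAC tumour exceeded the lowest isotype antibody tumour. The log2 fold change against isotype antibody was -0.38 ± 0.13, adjusted p = 0.0191 (limma), and without isotype antibody replicate 3 it was -0.33 with adjusted p = 0.0527. Ltbr was not called as deposited against isotype ISAC (-0.27 ± 0.13, adjusted p = 0.0963) or anti-rHER2 (-0.19 ± 0.13, adjusted p = 0.33, limma). It was called lower against isotype ISAC under all 3 other scalings, and against anti-rHER2 with equal medians and quantile normalization. Neither lymphotoxin chain was called as deposited in any of the 6 comparisons. With equal medians and with quantile normalization, Ltb was called lower against isotype antibody and Lta lower against isotype ISAC. Equal medians also gave a lower call of Lta against anti-rHER2 and a negative interaction. Ltb, the membrane anchor of lymphotoxin, averaged 72.9 ± 23.1 in anti-rHER2 ISAC tumours and 73.4 ± 26.8 in isotype antibody tumours, and Lta, its soluble partner, 8.63 ± 2.46 and 7.49 ± 3.69 in the same groups (SD, n = 5).

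**Figure D3:**
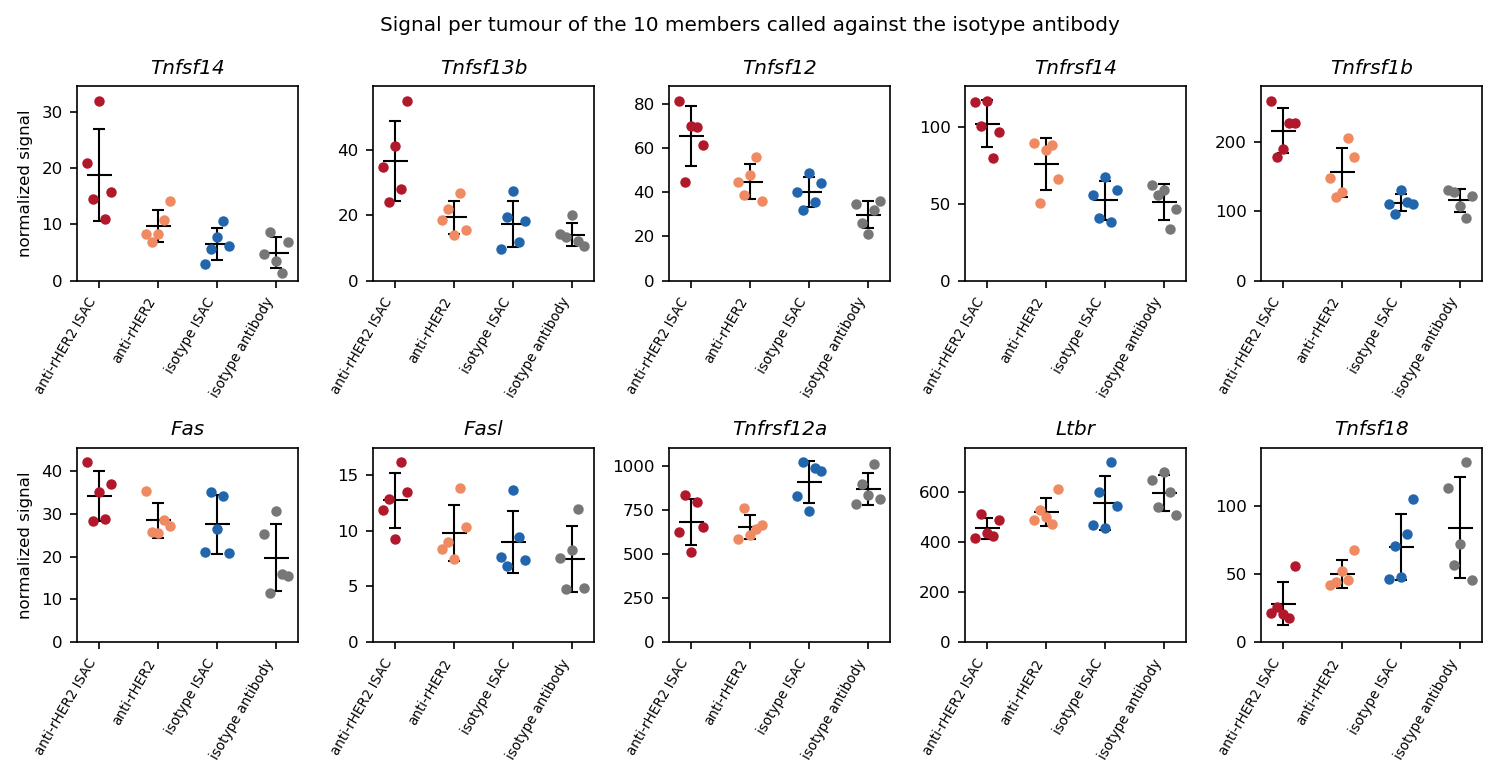
Normalized signal (y axis, from 0) in each of the 5 tumours per group for the 10 members called in anti-rHER2 ISAC against isotype antibody tumours, with group mean and SD bars. Tnfsf14 averages 18.9 in anti-rHER2 ISAC tumours and 5.00 in isotype antibody tumours, and Tnfsf18 28.2 and 83.7.

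Of the BAFF and APRIL members, which act on B cell survival, the ligand Tnfsf13b (BAFF) was higher while its receptors were not called. BAFF signals were 34.8, 23.97, 41.3, 27.99 and 54.9 in anti-rHER2 ISAC tumours and 18.6, 21.8, 14.03, 26.6 and 15.5 in anti-rHER2 tumours. BAFF signals in the other tumours were 9.57, 19.3, 27.4, 11.8 and 18.4 in isotype ISAC tumours and 14.1, 13.4, 20.03, 11.96 and 10.7 in isotype antibody tumours. Every anti-rHER2 ISAC tumour lay above every isotype antibody tumour (28.6% of all genes). However, 1 isotype ISAC tumour at 27.4 and 1 anti-rHER2 tumour at 26.6 exceeded the lowest anti-rHER2 ISAC tumour. The log2 fold change of BAFF was 1.29 ± 0.26, adjusted p = 0.000589 against isotype antibody, 0.86 ± 0.26, adjusted p = 0.0259 against anti-rHER2 and 1.07 ± 0.26, adjusted p = 0.00329 against isotype ISAC (limma). Of the 3 other scalings, all kept the isotype antibody call and none the anti-rHER2 call. The isotype ISAC call was kept with median-ratio scaling only. Tnfsf13 (APRIL), the related ligand, averaged 54.3 ± 15.7 in anti-rHER2 ISAC tumours and 43.7 ± 9.11 in isotype antibody tumours (0.28 ± 0.23, adjusted p = 0.348). With equal medians and quantile normalization, APRIL was called lower against anti-rHER2 and against isotype ISAC, though not as deposited. The receptors Tnfrsf13c (BAFF receptor), Tnfrsf13b (TACI) and Tnfrsf17 (BCMA) had log2 fold changes of -0.06 ± 0.31, 0.69 ± 0.38 and 0.32 ± 0.50 against isotype antibody, with adjusted p of at least 0.158 in limma. The B cell marker list had 3 of 12 genes higher (Cd79b, Blnk and Prdm1) and 0 lower in that comparison, beside 39.9% of all genes called higher. Its median log2 fold change was 0.29, beside 0.36 over all genes. Its summed signal was 263 to 369 in anti-rHER2 ISAC tumours and 184 to 229 in isotype antibody tumours. Blk was at the lowest level in most tumours, and with equal medians the list had 2 genes higher and 1 lower. Its part in the BAFF values was not tested.

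TWEAK (Tnfsf12) and its receptor Fn14 (Tnfrsf12a), a pair known for tissue injury responses, were called in opposite directions against isotype antibody tumours. TWEAK signals were 81.4, 44.5, 70.2, 69.5 and 61.6 in anti-rHER2 ISAC tumours and 44.6, 38.7, 47.9, 56.2 and 36.1 in anti-rHER2 tumours. TWEAK signals elsewhere were 40.2, 31.8, 48.7, 35.5 and 44.04 in isotype ISAC tumours and 34.8, 25.9, 21.2, 31.9 and 35.9 in isotype antibody tumours. All anti-rHER2 ISAC tumours exceeded all isotype antibody tumours (28.6% of all genes), and all anti-rHER2 tumours did too (9.22% of all genes). The log2 fold change was 1.10 ± 0.18, adjusted p = 6.03e-05 against isotype antibody, 0.53 ± 0.18, adjusted p = 0.0385 against anti-rHER2 and 0.68 ± 0.18, adjusted p = 0.0046 against isotype ISAC (limma). The isotype antibody call was lost with quantile normalization. The anti-rHER2 and isotype ISAC calls were lost under all 3 other scalings. Against isotype ISAC the sign turned with equal medians (-0.028). Fn14 averaged 684 ± 132 in anti-rHER2 ISAC tumours, 653 ± 68.9 in anti-rHER2 tumours, 912 ± 119 in isotype ISAC tumours and 869.7 ± 91.2 in isotype antibody tumours (SD, n = 5). Every anti-rHER2 tumour was below every isotype antibody tumour (0.39% of all genes), although that difference was not called as deposited (-0.41 ± 0.13, adjusted p = 0.057, limma). With median-ratio scaling and by edgeR, among other settings, Fn14 was called lower in that comparison. Against isotype antibody the anti-rHER2 ISAC difference was -0.36 ± 0.13, adjusted p = 0.0341, and against isotype ISAC -0.43 ± 0.13, adjusted p = 0.0161 (limma). Leaving out isotype antibody replicate 2 or 4, or anti-rHER2 ISAC replicate 1, 3 or 5, ended the isotype antibody call, with log2 fold changes from -0.35 to -0.26 and a highest adjusted p of 0.112. Without anti-rHER2 ISAC replicate 3 the isotype ISAC call ended as well (-0.33, adjusted p = 0.0526).

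Tnf, the founding cytokine of the family, was called in one comparison. Tnf signals were 7.32, 5.99, 23.7, 7.63 and 4.48 in anti-rHER2 ISAC tumours and 2.79, 2.98, 4.13, 2.96 and 3.87 in anti-rHER2 tumours. Tnf signals were also 5.74, 4.54, 6.84, 3.55 and 8.56 in isotype ISAC tumours and 12.2, 5.75, 2.36, 6.65 and 5.82 in isotype antibody tumours. All anti-rHER2 ISAC tumours exceeded all anti-rHER2 tumours in signal (12.5% of all genes), but not those of the isotype groups. In probe counts, which overlapped, Tnf was 4 in anti-rHER2 ISAC replicate 5 and 5 in anti-rHER2 replicate 3. Its log2 fold change was 1.10 ± 0.35, adjusted p = 0.0333 against anti-rHER2, 0.42 ± 0.35, adjusted p = 0.361 against isotype antibody and 0.48 ± 0.35, adjusted p = 0.301 against isotype ISAC (limma), and both isotype differences had the opposite sign with equal medians, as did that against isotype antibody with quantile normalization. Replicate 3, at 23.7, was far above the other anti-rHER2 ISAC tumours. Leaving out that tumour, anti-rHER2 ISAC replicate 1 or anti-rHER2 replicate 1, 2 or 4 ended the call, with a lowest log2 fold change of 0.75 and a highest adjusted p of 0.0895. The call was also lost with equal medians (0.72, adjusted p = 0.107), with median-ratio scaling (0.92, adjusted p = 0.0692), with the replicate block (adjusted p = 0.0533) and with the compared groups alone (adjusted p = 0.0514).

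Of the TNF receptors, Tnfrsf1b (TNFR2), the form found on leukocytes and endothelium, was higher, and the widely expressed death-domain receptor Tnfrsf1a (TNFR1) was not called. TNFR2 signals were 259.7, 179, 189.8, 228 and 227 in anti-rHER2 ISAC tumours and 149, 120.1, 129, 206 and 178 in anti-rHER2 tumours. The same probe gave 111, 96.5, 132, 114 and 110.1 in isotype ISAC tumours and 131, 128, 107, 90.4 and 122 in isotype antibody tumours. Every anti-rHER2 ISAC tumour was above every isotype antibody tumour (28.6% of all genes) and every isotype ISAC tumour (24.7% of all genes). At 206, 1 anti-rHER2 tumour fell inside the anti-rHER2 ISAC range. The log2 fold change was 0.90 ± 0.15, adjusted p = 0.000101 against isotype antibody, 0.48 ± 0.15, adjusted p = 0.0299 against anti-rHER2 and 0.93 ± 0.15, adjusted p = 7.93e-05 against isotype ISAC (limma). Of the 3 other scalings, equal medians ended the calls against both isotype groups, and all ended the anti-rHER2 call. Tnfrsf1a ranged from 983 to 1181 in anti-rHER2 ISAC tumours and from 943 to 1058 in isotype antibody tumours (0.14 ± 0.11, adjusted p = 0.337), a difference with the opposite sign under all 3 other scalings. It was not called against anti-rHER2 either (0.085 ± 0.11, adjusted p = 0.655, opposite in sign under all 3) or against isotype ISAC (-0.02 ± 0.11, adjusted p = 0.894), where it was called lower with equal medians (-0.75) and median-ratio scaling (-0.39).

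Among the death ligands and their receptors, Fas and Fasl were called higher in anti-rHER2 ISAC against isotype antibody tumours, and not against the other groups. Fas, the receptor that starts apoptosis, had signals of 42.1, 28.2, 35.1, 28.8 and 36.97 in anti-rHER2 ISAC tumours and 25.4, 11.5, 30.6, 15.9 and 15.5 in isotype antibody tumours. Its ligand Fasl, made by cytotoxic lymphocytes, had 11.9, 12.8, 9.29, 16.1 and 13.4 in anti-rHER2 ISAC tumours and 7.53, 4.79, 8.25, 11.96 and 4.85 in isotype antibody tumours. In both genes 3 of 5 anti-rHER2 ISAC tumours exceeded all isotype antibody tumours. The log2 fold changes were 0.83 ± 0.22, adjusted p = 0.00481 for Fas and 0.74 ± 0.23, adjusted p = 0.012 for Fasl (limma), and neither call was kept under the other scalings. Fas averaged 34.2 ± 5.79 in anti-rHER2 ISAC tumours, 28.5 ± 4.02 in anti-rHER2 tumours, 27.6 ± 6.94 in isotype ISAC tumours and 19.8 ± 7.92 in isotype antibody tumours (SD, n = 5 each). Its differences from anti-rHER2 (0.25 ± 0.22, adjusted p = 0.471) and isotype ISAC (0.32 ± 0.22, adjusted p = 0.267) were not called. Both turned negative with equal medians and quantile normalization, and the second with median-ratio scaling too. Those of Fasl were 0.36 ± 0.23, adjusted p = 0.305 and 0.48 ± 0.23, adjusted p = 0.103 in the same comparisons (limma). Of the marker lists, against isotype antibody and beside 39.9% of all genes called higher, 2 of 16 T cell genes were higher and 0 lower, with summed signals of 759 to 1127 in anti-rHER2 ISAC tumours and 692 to 820 in isotype antibody tumours, and 4 of 12 NK cell genes were higher and 1 lower, with 1102 to 1949 and 629 to 1110 in the same groups. With equal medians the T cell list had 0 higher and 3 lower and the NK cell list 3 and 3. Their part in the Fas and Fasl values was not tested. Tnfsf10 (TRAIL) averaged 196 ± 42.4 in anti-rHER2 ISAC tumours, 134 ± 25.2 in isotype ISAC tumours and 152 ± 27.7 in isotype antibody tumours. It was called against isotype ISAC (0.54 ± 0.19, adjusted p = 0.0279, limma), but under none of the 3 other scalings, and the sign turned with equal medians. It was not called against isotype antibody (0.36 ± 0.19, adjusted p = 0.129, opposite in sign under all 3 other scalings) or against anti-rHER2 (0.20 ± 0.19, adjusted p = 0.49, limma, opposite in sign with equal medians and quantile normalization). The isotype ISAC call ended without isotype ISAC replicate 1 or 2 or anti-rHER2 ISAC replicate 1 or 3 (lowest log2 fold change 0.44, highest adjusted p 0.0812). Its receptor Tnfrsf10b averaged 165 ± 27.00 in anti-rHER2 ISAC tumours and 196 ± 14.4 in isotype antibody tumours (-0.27 ± 0.13, adjusted p = 0.106). Although not called as deposited, it was called lower there under all 3 other scalings and with the replicate block. Against isotype ISAC (-0.32 ± 0.13, adjusted p = 0.0567, limma) it was called lower under all 3 too. The filter on low genes, the pseudocount of 10, the replicate block, the trended prior and edgeR also called it lower against isotype ISAC.

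Tnfsf18 (GITR ligand), which co-stimulates T cells through Tnfrsf18 (GITR), was the member with the lowest fold change. GITR ligand signals were 21.03, 25.7, 20.6, 17.8 and 56.02 in anti-rHER2 ISAC tumours and 41.9, 43.7, 52.01, 45.4 and 67.1 in anti-rHER2 tumours. Its signals were 45.9, 70.4, 47.9, 79.2 and 105 in isotype ISAC tumours and 113, 56.5, 71.9, 132 and 45.6 in isotype antibody tumours. Of the anti-rHER2 ISAC tumours, 4 lay below every tumour of the other 3 groups, and replicate 5, at 56.02, lay inside their ranges. The log2 fold change was -1.55 ± 0.32, adjusted p = 0.000624 against isotype antibody, -1.33 ± 0.32, adjusted p = 0.00266 against isotype ISAC and -0.91 ± 0.32, adjusted p = 0.0472 against anti-rHER2 (limma). The first and second of these held in every omission of 1 tumour, and all 3 under every scaling. GITR itself averaged 12.4 ± 4.66 in anti-rHER2 ISAC tumours and 17.1 ± 7.12 in isotype antibody tumours (-0.37 ± 0.35, adjusted p = 0.42), and was called lower there with equal medians and quantile normalization. Against isotype ISAC, GITR was not called as deposited (-0.67 ± 0.35, adjusted p = 0.137, limma) but was called lower under all 3 other scalings. Endothelial and dendritic cells are known sources of GITR ligand. Against isotype antibody, 39.9% of all genes were called higher and 4.68% lower. There 6 of 9 endothelial genes were higher and 0 lower, with summed signals of 992 to 1272 in anti-rHER2 ISAC tumours and 632 to 794 in isotype antibody tumours. Of 9 dendritic cell genes, 2 were higher and 2 lower, with 231 to 378 and 207 to 405 in the same groups. With equal medians 0 endothelial genes were called in either direction, and 3 and 1 were higher with median ratios and quantiles. The dendritic cell list had 2 higher and 5 lower with equal medians, and 2 and 3 with median ratios and with quantiles. Their part in the GITR ligand values was not tested.

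The remaining co-stimulatory pairs gave 1 call. Tnfrsf8 (CD30), a receptor of activated lymphocytes, had 5.49, 1.71, 5.16, 3.39 and 10.1 in anti-rHER2 ISAC tumours and 1.00, 1.14, 2.56, 1.18 and 1.22 in isotype ISAC tumours, where 4 of 5 were at the level of 1 count. Its log2 fold change against isotype ISAC was 1.23 ± 0.36, adjusted p = 0.0111 (limma), while against isotype antibody, where signals ranged from 1.00 to 3.99, it was 0.46 ± 0.36, adjusted p = 0.332. The isotype ISAC call was lost with equal medians (0.71, adjusted p = 0.0955, limma). Tnfsf8, the ligand of CD30, had a log2 fold change of -0.14 ± 0.22 against isotype antibody. Tnfsf4 (OX40 ligand) and Tnfrsf4 (OX40) had log2 fold changes of 0.42 ± 0.23 and 0.32 ± 0.48 in the same comparison, and Tnfrsf9, a receptor of activated T and NK cells, 0.79 ± 0.38, adjusted p = 0.102. Cd40lg, the helper T cell ligand of CD40, averaged 5.14 ± 1.80 in anti-rHER2 ISAC tumours and 3.31 ± 1.98 in isotype antibody tumours (0.55 ± 0.42, adjusted p = 0.32). Cd70 and Tnfsf15 had log2 fold changes of -0.04 ± 0.50 and -0.54 ± 0.37 at signals of a few units. Receptors outside the symbol rule were also read. Cd27, the receptor of Cd70, was higher against isotype antibody (0.85 ± 0.33, adjusted p = 0.0405), anti-rHER2 (1.005, adjusted p = 0.0348) and isotype ISAC (0.89, adjusted p = 0.0373, limma). Cd40 was higher against isotype ISAC (0.71, adjusted p = 0.0219) but not called against isotype antibody (0.41, adjusted p = 0.173) or anti-rHER2 (0.50, adjusted p = 0.153). Of these calls, only that of Cd27 against anti-rHER2 was kept under any of the 3 other scalings. It was kept with quantile normalization (0.94, adjusted p = 0.043, limma). None of the RANK members, known for bone and mammary gland biology, was called as deposited: log2 fold changes against isotype antibody were -0.48 ± 0.30 for the ligand Tnfsf11, 0.13 ± 0.09 for the receptor Tnfrsf11a and -0.64 ± 0.29 for the decoy receptor Tnfrsf11b. In that comparison Tnfrsf11a and Tnfrsf11b were called lower under all 3 other scalings, so the sign of Tnfrsf11a turned. Tnfsf11 was called lower with equal medians and median-ratio scaling.

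**Figure D4:**
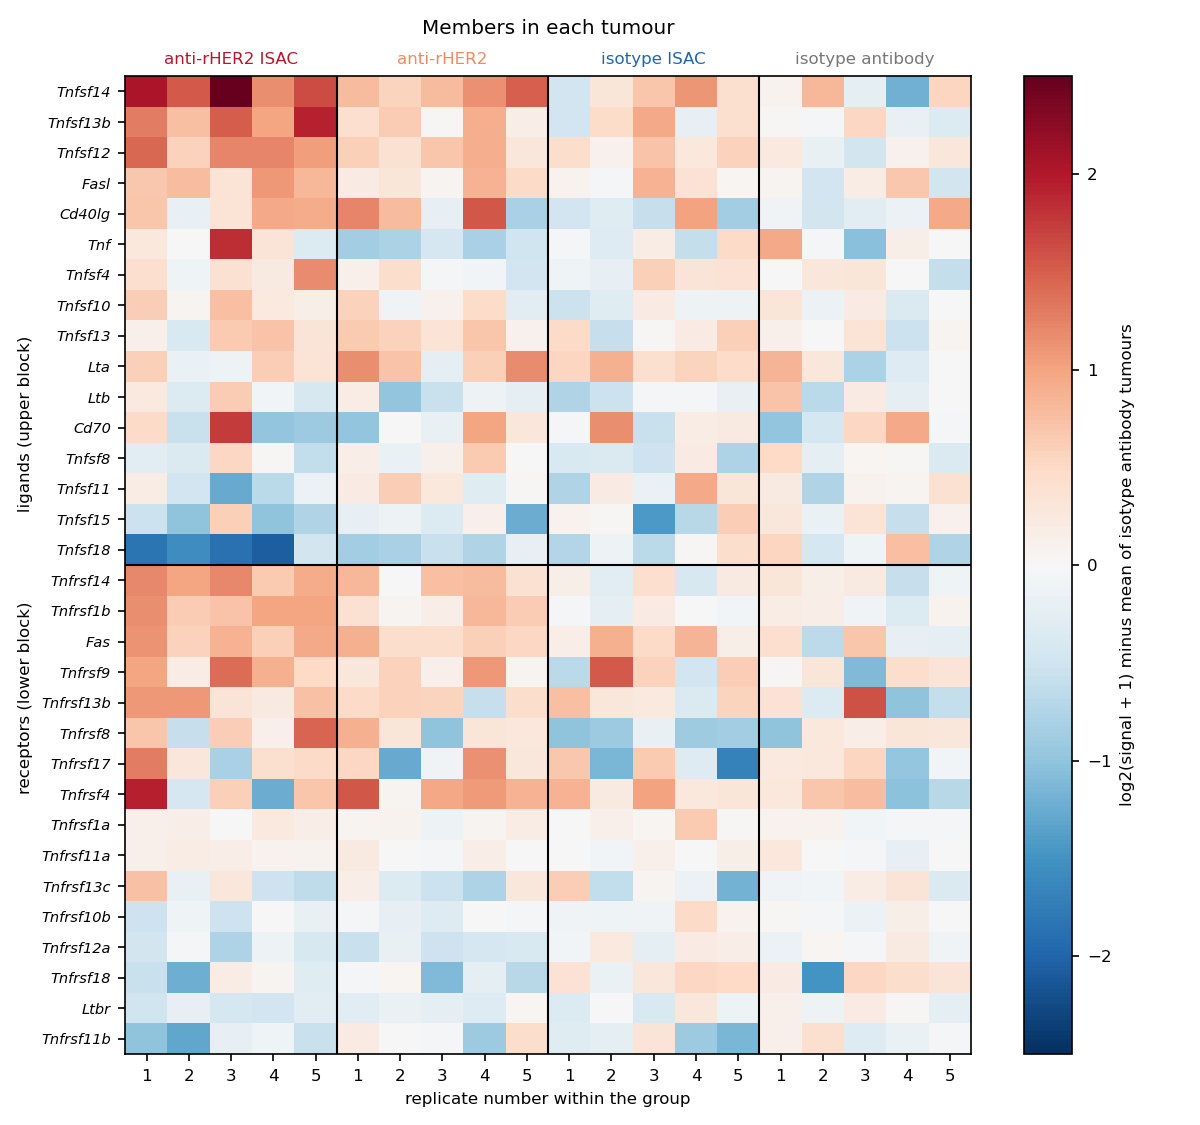
Difference of log2(signal + 1) from the mean of the isotype antibody tumours (colour scale) for the 32 members (rows) in the 20 tumours (columns). Tnfsf14 is raised in each of the 5 anti-rHER2 ISAC tumours, while Tnfsf18 is low in replicates 1 to 4 and near the other groups in replicate 5.

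What T785 added to the binding antibody is read from anti-rHER2 ISAC against anti-rHER2. Here 4 of 32 members were called higher (Tnf, Tnfsf13b, Tnfsf12 and Tnfrsf1b), where 19.6% of all genes were, and 1 lower (Tnfsf18), where 2.99% of all genes were. The median was 0.13 over the members and 0.16 over all genes. With equal medians 0 were higher and 9 lower, with median-ratio scaling 0 and 1, and with quantile normalization 1 and 5. Omitting single tumours ended the Tnfsf18 call in 9 of 10 cases (all but anti-rHER2 ISAC replicate 5, highest adjusted p 0.119) and the Tnfsf12 call in 8 (all but anti-rHER2 replicate 4 and anti-rHER2 ISAC replicate 2, 0.116). The Tnfrsf1b call ended in 6 (anti-rHER2 replicates 1, 2 and 3 and anti-rHER2 ISAC replicates 1, 4 and 5, 0.0906) and the Tnfsf13b call in 4 (replicates 3 and 5 of both groups, 0.0777). The Tnf call was kept with quantile normalization only, and those of Tnfsf13b, Tnfsf12 and Tnfrsf1b under no other scaling. The Tnfsf18 call alone was kept under all 3 scalings. It was lost with a pseudocount of 10 (adjusted p = 0.0532), the replicate block (0.0613), array weights (0.0627), edgeR (0.0771) and the compared groups alone (0.0505).

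Binding of the conjugate to the tumour is read from anti-rHER2 ISAC against isotype ISAC. There 7 of 32 members were called higher (Tnfsf14, Tnfrsf8, Tnfsf13b, Tnfrsf14, Tnfrsf1b, Tnfsf12 and Tnfsf10), where 36% of all genes were, and 2 lower (Tnfsf18 and Tnfrsf12a), where 3.9% were. In 3 members every anti-rHER2 ISAC tumour lay above every isotype ISAC tumour (24.7% of all genes). The members' median log2 fold change was 0.23, beside 0.29 over all genes. With equal medians 0 were higher and 11 lower, with median-ratio scaling 5 and 8, and with quantile normalization 2 and 8. The calls of Tnfsf18 and Tnfrsf12a were kept under all 3, and those of Tnfsf12 and Tnfsf10 under none. These 3 comparisons share the anti-rHER2 ISAC tumours, so they are not independent of each other.

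The antibody alone gave 1 call against isotype antibody. Tnfsf12 was higher (0.57 ± 0.18, adjusted p = 0.0494, limma), where 8.83% of all genes were called higher, and 0 members were lower, where 0.26% of all genes were. That call ended in 8 of 10 omissions of 1 tumour (all but isotype antibody replicate 5 and anti-rHER2 replicate 2), with a highest adjusted p of 0.144, and in edgeR's quasi-likelihood test on the recovered counts. It was also lost under all 3 other scalings and with the compared groups alone. Tnfrsf12a, not called as deposited, was called lower with median-ratio scaling, the filter on low genes and the pseudocount of 10. The replicate block, array weights, the trended prior and edgeR called Tnfrsf12a lower too. In the same comparison the log2 fold changes were -0.68 for Tnf, 0.58 for Fas, 0.06 for Tnfrsf1a, 0.41 for Tnfrsf1b and 0.16 for Tnfsf10, with limma adjusted p of 0.243, 0.107, 0.814, 0.0934 and 0.639, and those of Tnfrsf1a and Tnfsf10 had the opposite sign under all 3 other scalings. T785 on the isotype antibody gave 0 calls by limma and 0 by edgeR, beside 0% of all genes called higher and 0% lower. At an unadjusted p below 0.05, limma had 2 members higher and 1 lower there, and edgeR 1 and 0. The log2 fold changes there were -0.06 for Tnf, 0.51 for Fas, 0.165 for Tnfrsf1a, -0.035 for Tnfrsf1b and -0.18 for Tnfsf10, with limma adjusted p of at least 0.744.

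Whether T785 acted differently on the binding and the isotype antibody was tested as an interaction. No member was called by limma or edgeR (0 of 32), where 6.88% of all genes were called with a positive and 0.26% with a negative interaction. At an unadjusted p below 0.05 each tool had 2 members positive and 1 negative. The interactions of greatest size were 1.16 ± 0.50, adjusted p = 0.187 for Tnf, -1.12 ± 0.67, adjusted p = 0.369 for Tnfrsf4, 1.08 ± 0.52, adjusted p = 0.24 for Tnfrsf8 and -1.01 ± 0.40, adjusted p = 0.16 for Lta (limma). The interaction was -0.255 for Fas, -0.08 for Tnfrsf1a, 0.52 for Tnfrsf1b and 0.38 for Tnfsf10, with limma adjusted p of 0.742, 0.856, 0.171 and 0.456, and that of Tnfsf10 was negative with equal medians. Equal medians gave 1 call, a negative interaction of Lta.

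Ligand and receptor were also set against each other within each tumour, which cancels the scale of the tumour. For 21 textbook pairs, added after values were seen and described with no test, the difference in log2(ligand / receptor) between anti-rHER2 ISAC and isotype antibody tumours was computed. The groups did not overlap for 3 pairs, all with more ligand per receptor in anti-rHER2 ISAC tumours. These were Tnfsf14 with Ltbr (2.45 ± 0.58), Tnfsf12 with Tnfrsf12a (1.49 ± 0.29) and Tnfsf13b with Tnfrsf13c (1.46 ± 0.43, SE). Tnfsf14 with Tnfrsf14, both called higher, differed by 1.06 ± 0.41. The Fasl with Fas ratio differed by -0.03 ± 0.34, and that of Tnfsf18 with Tnfrsf18 by -1.21 ± 0.60, with overlapping groups in all 3. Tnfsf14 with Ltbr and Tnfsf12 with Tnfrsf12a each join a member called higher with one called lower. Against anti-rHER2 the groups did not overlap for 1 of the 21 pairs, Tnfsf14 with Ltbr (1.095 ± 0.322). Against isotype ISAC they stood above for that pair (1.81 ± 0.38) and below for Lta with Tnfrsf1b (-1.30 ± 0.19). The share among other gene pairs was not computed.

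**Figure D5:**
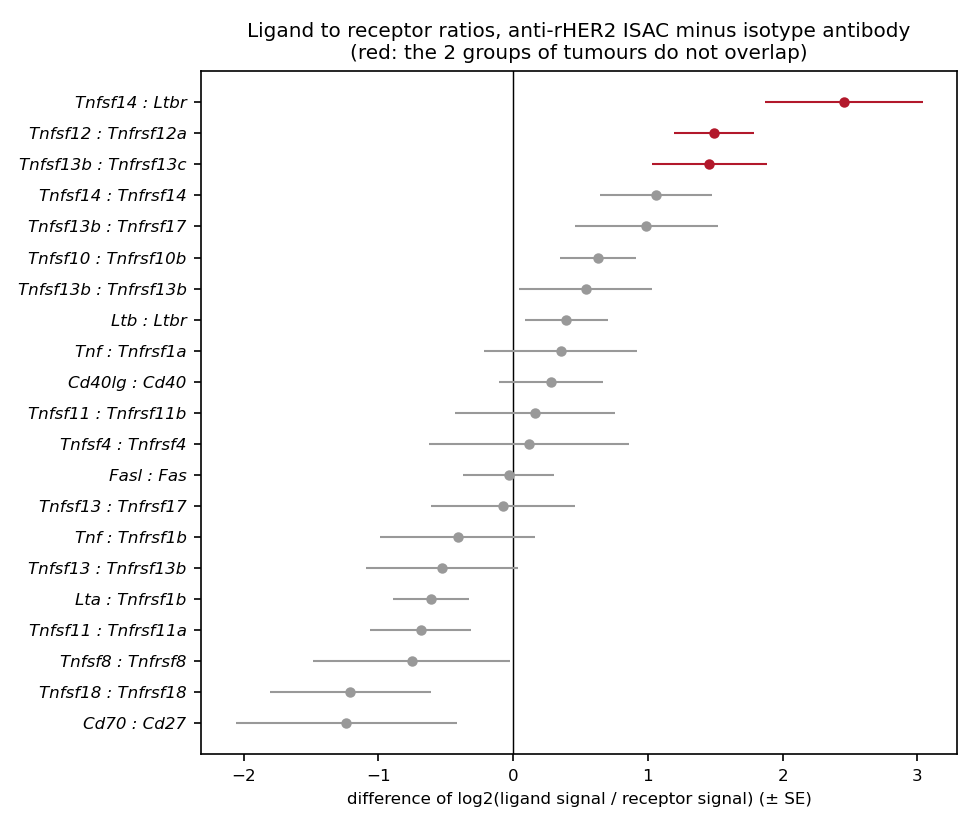
Difference in log2(ligand signal / receptor signal) between anti-rHER2 ISAC and isotype antibody tumours (x axis, with standard errors) for 21 ligand and receptor pairs (rows), in red where the tumours of the groups do not overlap. The Tnfsf14 and Ltbr pair stands at 2.45.

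Genes downstream of the receptors were read in anti-rHER2 ISAC against isotype antibody tumours. Of 24 adaptors and NF-kB pathway genes, 12 were higher and 3 lower, with a median of 0.27. The 4 of greatest change were the kinase Ikbke (1.51 ± 0.19, adjusted p = 3.93e-06), the NF-kB subunit Rel (0.63 ± 0.15, adjusted p = 0.0026), the kinase Ripk2 (0.59) and the NF-kB precursor Nfkb1 (0.57). Of 22 textbook NF-kB target genes, 9 were higher and 2 (Cxcl1 and Cd83) lower, with a median of 0.26. The chemokines Ccl5 (3.97 ± 0.28, adjusted p = 2.66e-09) and Ccl2 (2.45 ± 0.27, adjusted p = 6.87e-07) led these, ahead of the prostaglandin synthase Ptgs2 (1.82) and the cytokine Il6 (1.20, all limma). Both shares stand beside the 39.9% of all genes called higher. The adaptor list had 1 gene higher under each other scaling, and 14 lower with equal medians, 9 with median ratios and 12 with quantiles. The target list had 2 higher and 8 lower with equal medians, 6 and 3 with median ratios, and 4 and 7 with quantiles.

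Markers of myeloid cells, which can make BAFF, LIGHT and TWEAK and carry TNFR2, were read beside these members. In anti-rHER2 ISAC against isotype antibody tumours, where 39.9% of all genes were called higher, 9 of 14 monocyte and macrophage genes were higher and 0 lower. Their summed signal was 4226 to 6128 in anti-rHER2 ISAC tumours, 3631 to 4803 in anti-rHER2 tumours, 2611 to 3173 in isotype ISAC tumours and 2334 to 3176 in isotype antibody tumours. Of 12 neutrophil genes 5 were higher and 0 lower, a share near that of all genes, and without Lcn2, which took 22.9% to 33.5% of all signal, the sums were 1519 to 2974 in anti-rHER2 ISAC tumours, 808 to 1021 in anti-rHER2 tumours, 622 to 739.6 in isotype ISAC tumours and 576 to 736 in isotype antibody tumours. With equal medians the monocyte and macrophage list had 5 higher and 4 lower and the neutrophil list 5 and 2. In neither list was a measured gene at the lowest level in most tumours. Of the lists not yet described, 2 of 5 epithelial, 5 of 8 fibroblast and 1 of 7 mast cell and eosinophil genes were higher and 0 lower, while with equal medians 3, 4 and 1 were lower and 0 higher. The part of these lists in the member values was not tested.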

How the data were processed

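RNA of 20 tumours was measured with nCounter probes for 770 mouse genes. The deposited table holds the authors' normalized signal per gene and tumour on a linear scale. Neither the labels nor the file header name their normalization. Of the values above 1 and up to 1000, 100% lay within 0.02 of whole multiples of 1 step per tumour, so each tumour carries 1 scale factor, and whole probe counts could be recovered. Groups were taken from the labels.

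Log2(signal + 1) was fitted in limma 3.58.1 (R 4.3.3) with a mean per group over all 20 tumours, and p-values were adjusted (Benjamini-Hochberg) over 770 genes. A gene was called at adjusted p below 0.05. The members, gene lists and tests were chosen with earlier results of these data known. Every member may be named. Members called in a comparison are given with their statistics, Tnf, Fas, Tnfrsf1a, Tnfrsf1b and Tnfsf10 in every case, and of each other list at most the 4 called genes of largest change. Alternatives were 3 other scalings, a filter on low genes, a pseudocount of 10, a trended robust prior, a replicate block, weights per array, the compared groups alone, a fold threshold, edgeR 4.0.16 quasi-likelihood tests on recovered counts and omission of each tumour. The fits were tested on simulated data. Promoters came from RefSeq (GRCm38.p6). Marker lists for T, B, NK, neutrophil, monocyte and macrophage, dendritic, endothelial, epithelial, fibroblast and mast cell genes were read for the members' context, and none of the red cell markers was on the panel. Other than the 32 members and these lists, no gene is reported.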

Additional observations from a re-analysis of the deposited data

Results flagged for a closer look

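In 8 of 128 sets of 5 tumours (32 members in 4 groups), 1 tumour stood apart from the other 4 of its group by a gap above Dixon's critical value on the log2(signal + 1) scale. Chance gives about 1 in 20 such sets. The values given here are signals. In isotype antibody tumours, Cd40lg was 6.80 in replicate 5 against 1.92 to 2.82 in the others, and Tnfrsf18 was 4.79 in replicate 2 against 17.9 to 22.4. In that replicate 2, Tnfsf11 was also 4.79, against 9.31 to 11.7 in the others. Tnfrsf8 was 1.0 in replicate 1 of that group against 3.54 to 3.99, and Tnfrsf9 was 1.18 in replicate 3 against 3.76 to 5.32. In isotype ISAC tumours, Tnfrsf1a was 1557 in replicate 4 against 982 to 1082, and Tnfrsf8 was 2.56 in replicate 3 against 1.0 to 1.22. In anti-rHER2 tumours, Tnfrsf13b was 3.95 in replicate 4 against 9.04 to 9.93. Measured on the signals themselves, the gap was above that value in 10 sets, 3 of them in anti-rHER2 ISAC tumours and added after values were seen: Tnf was 23.7 in replicate 3 against 4.48 to 7.63, Tnfsf15 was 7.22 in replicate 3 against 1.70 to 2.74, and Tnfsf18 was 56.02 in replicate 5 against 17.8 to 25.7. Most of these values are a few probe counts.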

How the results depend on the processing

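The number of members called depended on the scale of the tumours and, for anti-rHER2 ISAC against anti-rHER2, anti-rHER2 ISAC against isotype ISAC and anti-rHER2 against isotype antibody, on single tumours. For anti-rHER2 ISAC against isotype antibody (10 calls), a log2 fold change of at least 1 left 4, equal medians gave 16, and omission of 1 tumour 9 to 10. Against anti-rHER2 (5 calls), these gave 1, 9 and 1 to 4, median-ratio scaling and the compared groups alone 1 each, and the replicate block 3. Against isotype ISAC (9 calls) the fold threshold left 4, and omissions gave 7 to 12. For anti-rHER2 against isotype antibody (1 call), the fold threshold, equal medians, quantile normalization and the compared groups alone left 0, the filter on low genes, the pseudocount of 10, array weights and the trended prior gave 2, the replicate block 3, and omissions 0 to 4. Isotype ISAC against isotype antibody and the interaction kept 0 calls in every omission (0 to 0), and equal medians gave 1 for the interaction. The cause of these changes was not tested.

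Signs turned for some named members. With equal medians the log2 fold changes of anti-rHER2 ISAC against isotype antibody were -0.20 for Tnf, -0.58 for Tnfrsf1a and -0.36 for Tnfsf10, with median-ratio scaling -0.27 for Tnfrsf1a and -0.043 for Tnfsf10, and with quantile normalization -0.032 for Tnf, -0.18 for Tnfrsf1a and -0.15 for Tnfsf10. Against anti-rHER2, equal medians gave -0.17 for Fas, -0.35 for Tnfrsf1a and -0.23 for Tnfsf10, median-ratio scaling -0.12 for Tnfrsf1a, and quantile normalization -0.12 for Fas, -0.17 for Tnfrsf1a and -0.14 for Tnfsf10. Against isotype ISAC, equal medians gave -0.18 for Tnfsf10, -0.028 for Tnfsf12, -0.14 for Tnf and -0.38 for Fas, median-ratio scaling -0.032 and quantile normalization -0.36 for Fas, and array weights 0.039 for Tnfrsf1a, which omissions moved to -0.069 to 0.097. For anti-rHER2 against isotype antibody, equal medians gave -0.23 for Tnfrsf1a and -0.13 for Tnfsf10, median-ratio scaling -0.15 and -0.043, and quantile normalization -0.008 and -0.009. For isotype ISAC against isotype antibody, omissions moved Tnf to -0.319 to 0.175 and Tnfrsf1b to -0.12 to 0.018. The interaction turned for Tnfsf10 with equal medians (-0.056) and for Tnfrsf1a with array weights (0.015) and in omissions (-0.126 to 0.040).

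The deviations of same-numbered tumours had correlations from -0.177 to 0.253, with 10 of 30 over 0.1. For 7 of 20 tumours, the mean correlation with tumours of the other groups was highest for their own number. No chance level was computed, so these values do not settle whether same-numbered tumours deviate together. The main fit did not take the replicate numbers as pairs, and the replicate block was fitted as an alternative. The depth behind many members was a few counts: 17 of the 32 averaged under 15 units.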

Other observations

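Several members are neighbours on the mouse genome with no coding gene between them in RefSeq (GRCm38.p6). In anti-rHER2 ISAC against isotype antibody tumours, the called members had no adjacent member called in the same direction. On chromosome 1, Tnfsf18 lies between Tnfsf4 and Fasl. In that comparison the log2 fold changes were 0.42 ± 0.23 for Tnfsf4 (adjusted p = 0.16), -1.55 ± 0.32 for Tnfsf18 (adjusted p = 0.000624) and 0.74 ± 0.23 for Fasl (adjusted p = 0.012, limma). On chromosome 11, Tnfsf12 was called higher beside Tnfsf13 (0.28 ± 0.23, adjusted p = 0.348). On chromosome 17, Tnfsf14 was called higher beside Cd70 (-0.04 ± 0.50, adjusted p = 0.947). On chromosome 4, Tnfrsf1b was called higher beside Tnfrsf8 (0.46 ± 0.36, adjusted p = 0.332). The Ltb, Tnf and Lta cluster on chromosome 17 had no call in this comparison. Against isotype ISAC, the neighbours Tnfrsf1b (0.93, adjusted p = 7.93e-05) and Tnfrsf8 (1.23, adjusted p = 0.0111) were both called higher. Differences between neighbours were not tested.

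The median spread between tumours of 1 group was wider for the members, of which 17 averaged under 15 units, than for the panel. The median SD of log2(signal + 1) over the 32 members was 0.45 in anti-rHER2 ISAC tumours, 0.35 in anti-rHER2 tumours, 0.36 in isotype ISAC tumours and 0.41 in isotype antibody tumours, beside 0.32, 0.30, 0.32 and 0.31 over all genes in the same groups. This did not hold for the 7 members averaging over 100 units. Of these, Ltbr, Tnfrsf10b, Tnfrsf11a, Tnfrsf12a and Tnfrsf1a had an SD below the panel median in every group. Tnfrsf1b and Tnfsf10 did so in every group but anti-rHER2. The part of signal level in the spread was not tested. Within the anti-rHER2 ISAC group, replicate 3 was the highest tumour for 10 members and replicate 2 the lowest for 13.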
